A study of Homo sapiens with 95 samples.

Results

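The 41 genes described here are the genes of the amino acid response that is driven by the transcription factor ATF4. They were given as a list of symbols. All 41 symbols were among the 27978 genes listed in the count data and all had a mean count of at least 1 read, as had 14407 genes in total. The data are sparse full length (SFL) RNA-seq profiles, a pooled sequencing method in which each sample carries its own barcode, of AALE cells, an immortalized human bronchial epithelial cell line. The cells had 1 of 8 genotypes, each combined with 4 treatments, which gave 32 combinations and 95 samples, with 3 samples per combination except for the 2 of FGFR1 with CSC. HCRED cells, which carried the empty vector with the reporter HcRed, were the control of cells that overexpressed NRF2 (gene NFE2L2), FGFR1, NRG1 or PIK3CA. GFP cells, which received the Cas9 and EGFP plasmid without a guide RNA, were the control of the CRISPR knockouts of FAT1 and CDKN2A. Each line was exposed to 24 µg/ml cigarette smoke condensate (CSC), 173 µM of the polycyclic hydrocarbon benzo[a]pyrene (BaP), 490 µM of the tobacco nitrosamine NNK, or DMSO as the solvent alone, and all groups share the immortalized background. The study calls the replicates biological. The sources do not state how long the exposure lasted, whether a line was 1 clone or a pool, or whether the replicates were grown separately, so p-values measure only the spread between these samples.

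ATF4 is translated preferentially when stress kinases phosphorylate the initiation factor eIF2, for example when uncharged tRNA signals a lack of amino acids. It dimerizes with C/EBP family factors on composite C/EBP-ATF elements and raises the transcription of genes that make, import and charge amino acids. Its targets also include the pro-apoptotic factor DDIT3 (CHOP) and feedback inhibitors such as TRIB3. Since much of this control acts on the translation of ATF4, the ATF4 transcript is not a measure of ATF4 protein.

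RefSeq promoter windows on GRCh38.p14, from 250 bases before to 50 bases after a start site, were found for 36 of the 41 members, and the core TGATGNAA of the C/EBP-ATF element was searched on both strands. It was present in 13 of these 36 members (36.1%) and in 4.46% of 27305 genes with a window, or in 23.2% of 56 member windows against 3.62% of all 35116 windows. The members were listed as genes driven by ATF4, so the higher share may follow from that choice. It is not a test of the list. The 13 members were ASNS, the transporter genes SLC3A2, SLC7A1, SLC1A5 and SLC1A4, the tRNA synthetase genes AARS, GARS, MARS, NARS and IARS, the factors ATF3 and CEBPG, and CHAC1. ASNS and the 5 holders with the largest change with a chemical are shown, so that the element can be read in its place. The capitals mark the element, each run reads 5′ to 3′ on the strand that holds it, and the strand is given after the coordinates.
ASNS, asparagine synthetase, chr7:97872458-97872487 (-): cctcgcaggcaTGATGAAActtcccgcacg
SLC3A2, heavy chain of amino acid exchangers, chr11:62881725-62881748 (-): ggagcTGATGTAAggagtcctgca
SLC1A5, neutral amino acid exchanger, chr19:46784893-46784922 (-): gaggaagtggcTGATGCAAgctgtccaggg
ATF3, stress-induced transcription factor, chr1:212565205-212565234 (+): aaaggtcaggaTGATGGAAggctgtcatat
CHAC1, glutathione-degrading cyclotransferase, chr15:40953251-40953280 (-): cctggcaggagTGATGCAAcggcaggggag
NARS, asparaginyl-tRNA synthetase, chr18:57621804-57621833 (-): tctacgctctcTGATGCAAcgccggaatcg
Relative to the start site the element lay at -68 to -61 in ASNS, at -97 to -90 in SLC1A5, at -191 to -184 in ATF3 and at -209 to -202 in CHAC1. It lay at 37 to 44 in SLC3A2 and at 14 to 21 in NARS, within the transcribed stretch. In SLC3A2 and CHAC1 it was on the strand opposite to the gene. A match is a description of these letters and not evidence of binding in AALE cells.

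The libraries held between 287446 and 2116383 counted reads, with a median of 934235, so that 3 counts correspond to 1.42 to 10.4 CPM (a gene's reads relative to all reads of its sample). The median depth was 1051110 with DMSO, 825587 with CSC, 836088 with BaP and 753702 with NNK. No molecular identifiers are stated, so this precision covers counting error only. The perturbed gene was checked in each line. NFE2L2 was at 10.37 to 10.80 log2 CPM in NRF2 cells and 7.59 to 7.96 in HCRED, FGFR1, NRG1 and PIK3CA were likewise above HCRED without overlap, and FAT1 and CDKN2A transcripts were lower in their knockouts without overlap (6.10 to 7.03 against 8.03 to 8.82, and 5.22 to 6.11 against 6.34 to 7.22). All 8 markers of bronchial basal epithelium were present, with summed levels of 3994 to 11794 CPM, against 8.06 to 71.4 CPM for 6 fibroblast, 4.16 to 42.0 CPM for 6 immune and 0 to 6.26 CPM for 4 endothelial markers. The epithelial markers also differed between groups. With DMSO 0 rose and 4 fell in GFP against HCRED, 1 and 6 in FAT1, 3 and 5 in CDKN2A, 0 and 5 in FGFR1, 0 and 4 in NRG1, 0 and 7 in PIK3CA and 3 and 1 in NRF2 cells against their controls, and over all lines 1 and 5 with CSC, 1 and 7 with BaP and 3 and 2 with NNK. Of all genes, 17.2%, 25.9%, 37.5%, 1.83%, 1.96%, 8.45% and 6.75% were called in these line comparisons, in the same order. With CSC, BaP and NNK 55.2%, 51.3% and 52% of all genes were called. The part of this in the members' values was not tested. In bulk RNA, fewer cells of a type and less RNA per cell cannot be told apart.

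Per kilobase of exon, the most abundant members in the 24 DMSO samples were the leucine transporter SLC7A5, with a mean level of 8.32 log2 CPM per kb, the mTORC1 inhibitor DDIT4 with 7.48 and the bifunctional tRNA synthetase EPRS with 7.0. PSAT1, the aminotransferase of serine synthesis, followed with 6.64 and the glutamine transporter SLC38A2 with 6.44. On this scale ATF4 stood at 5.92, rank 9 of 41, and DDIT3 at 3.79, rank 24. ASNS, the gene most often used to read this response, was at -0.22 and ranked 40, above only the cystathionine synthase CBS at -1.10. The lengths were those of the union of all GENCODE exons of a gene, while reads were assigned to RefSeq genes, so the ranks depend on the annotation. IARS and GARS, with lengths of 22418 and 17366 bases, ranked 15 and 20, although their mean levels before division by length were 9.09 and 8.44 log2 CPM. ASNS had a mean of 2.18 reads per sample and 0 reads in 23 of 95 samples. Its gene is overlapped over 76325 of 76765 bases by CZ1P-ASNS, which had a mean of 0.442 reads and a maximum of 4. CBS, which has the near-identical copy CBSL, had a mean of 1.13 reads and 0 reads in 43 samples. The values of ASNS and CBS in these samples are therefore uncertain, both for their few reads and for the overlap or copy. How reads shared with CZ1P-ASNS or CBSL were assigned is not stated, so a low count or rank here need not mean a low transcript level. ATF5 overlaps NUP62 by 599 bases and PCK2 overlaps NRL by 9955, and no strand setting is stated for the counting.

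The share of members called was highest between the 2 control lines. With DMSO, 28 of the 41 members rose and 3 fell in GFP relative to HCRED cells (limma-voom, adjusted p under 0.05 over all genes), 75.6% of the members against 17.2% of all tested genes. Of all genes 8.33% rose and 8.91% fell. All tested genes include every gene with a mean count of at least 1, while the members' mean counts ran from 1.13 for CBS to 2148 for SLC7A5. The paper reports that statistical signal rises with mean expression. The shares of members and of all genes were not matched for abundance, here or in the later comparisons and interactions, so they are not a test of the set. The median log2 fold change of the members was 0.58, and that of all genes was -0.01. The comparison has a different vector and delivery on either side, which cannot be told apart from the line. Among the 8 lines with DMSO, GFP had the highest mean of 25 members and NRF2 the lowest of 21.

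All 6 serine, glycine and one-carbon enzyme genes but SHMT2 rose in GFP cells. PSAT1 was at 9.13, 9.21 and 8.99 log2 CPM in the GFP samples and at 7.62, 7.68 and 7.64 in the HCRED samples. These groups did not overlap, and the log2 fold change was 1.47 ± 0.09 (SE, adjusted p = 2.76e-23), or 2.76-fold. PHGDH, which opens the serine pathway, was at 7.89, 7.91 and 7.90 against 6.81, 6.93 and 6.98, a log2 fold change of 1.01 ± 0.11 (adjusted p = 2.72e-11). The mitochondrial carboxykinase PCK2 was at 6.70, 6.92 and 6.20 against 4.89, 5.25 and 5.37, a rise of 1.47 ± 0.20 (adjusted p = 1.54e-08). Each of these enzymes was higher in every GFP sample than in every HCRED sample. ALDH1L2, MTHFD2 and PSPH, which act on folate or close the serine pathway, and the alanine transaminase GPT2 rose by 0.59 to 0.74.

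The transporters split. SLC6A9, a glycine importer, was at 5.45, 5.34 and 5.93 in GFP and 3.64, 3.43 and 3.46 in HCRED cells, a rise of 2.24 ± 0.32 (adjusted p = 1.08e-07). SLC7A1, SLC1A5, SLC1A4 and SLC38A2, which carry cationic and neutral amino acids, rose by 0.26 to 0.70. SLC7A5 and its partner SLC3A2, the subunits of the leucine exchanger LAT1, fell. SLC7A5 was at 9.83, 10.21 and 10.08 in GFP and 10.52, 10.60 and 10.36 in HCRED cells, with no overlap and a log2 fold change of -0.44 (adjusted p = 4.72e-09). SLC3A2 fell by 0.30 (adjusted p = 0.00453). With a trend of GC content and gene length removed from each sample, the SLC7A5 change was -0.18 (adjusted p = 0.0054) and that of SLC3A2 was -0.17 (adjusted p = 0.11). Of the 9 synthetase and export genes, 8 rose, led by IARS (isoleucyl-tRNA synthetase) with 0.86 ± 0.07 (adjusted p = 1.18e-17), and WARS did not pass the threshold. AARS, GARS, EPRS, SARS, MARS, XPOT and NARS rose by 0.27 to 0.64, and the calls of NARS and XPOT were lost with DESeq2 and with the GC and length trend removed.

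DDIT3 was at 5.0, 5.04 and 4.53 log2 CPM in GFP and 2.87, 4.38 and 2.60 in HCRED cells, a rise of 1.93 ± 0.38 (adjusted p = 7.27e-05). The second HCRED sample stood apart above the other HCRED samples, but the groups did not overlap. DDIT3 had 27 to 32 reads in the GFP samples and 4 to 13 in the HCRED samples. The feedback and stress genes CHAC1 (5.21, 5.83 and 5.27 against 3.54, 4.17 and 2.82), VLDLR (6.18, 6.08 and 5.93 against 4.40, 4.17 and 4.45) and STC2 (6.31, 6.16 and 5.99 against 4.97, 5.20 and 5.07) also separated completely. Their log2 fold changes were 2.18 for CHAC1, a glutathione-degrading enzyme, 1.77 for VLDLR, a lipoprotein receptor, and 1.11 for STC2, a secreted glycoprotein. ATF3 (1.40 ± 0.33, adjusted p = 0.00123) and the C/EBP partner CEBPG (1.0 ± 0.12, adjusted p = 1.22e-09) rose as well. DDIT4 fell by 0.56 (adjusted p = 8.57e-07). TRIB3, the pseudokinase that inhibits ATF4, rose by 0.58 ± 0.20 (adjusted p = 0.034), a call that was lost with DESeq2 and without any of 5 of the 6 libraries. The ATF4 transcript itself was at 7.53, 7.75 and 7.25 against 7.06, 6.98 and 7.27, overlapping at the edges, with a log2 fold change of 0.39 ± 0.12 (adjusted p = 0.0139). That call was lost without GFP replicate 2, HCRED replicate 1 or HCRED replicate 2, where the adjusted p reached 0.141, and 7 of the 31 calls were lost in at least 1 such fit. ASNS, with 4 to 5 reads in GFP and 1 to 2 in HCRED samples, gave 1.28 ± 0.67 and did not pass (adjusted p = 0.193).

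**Figure D1:**
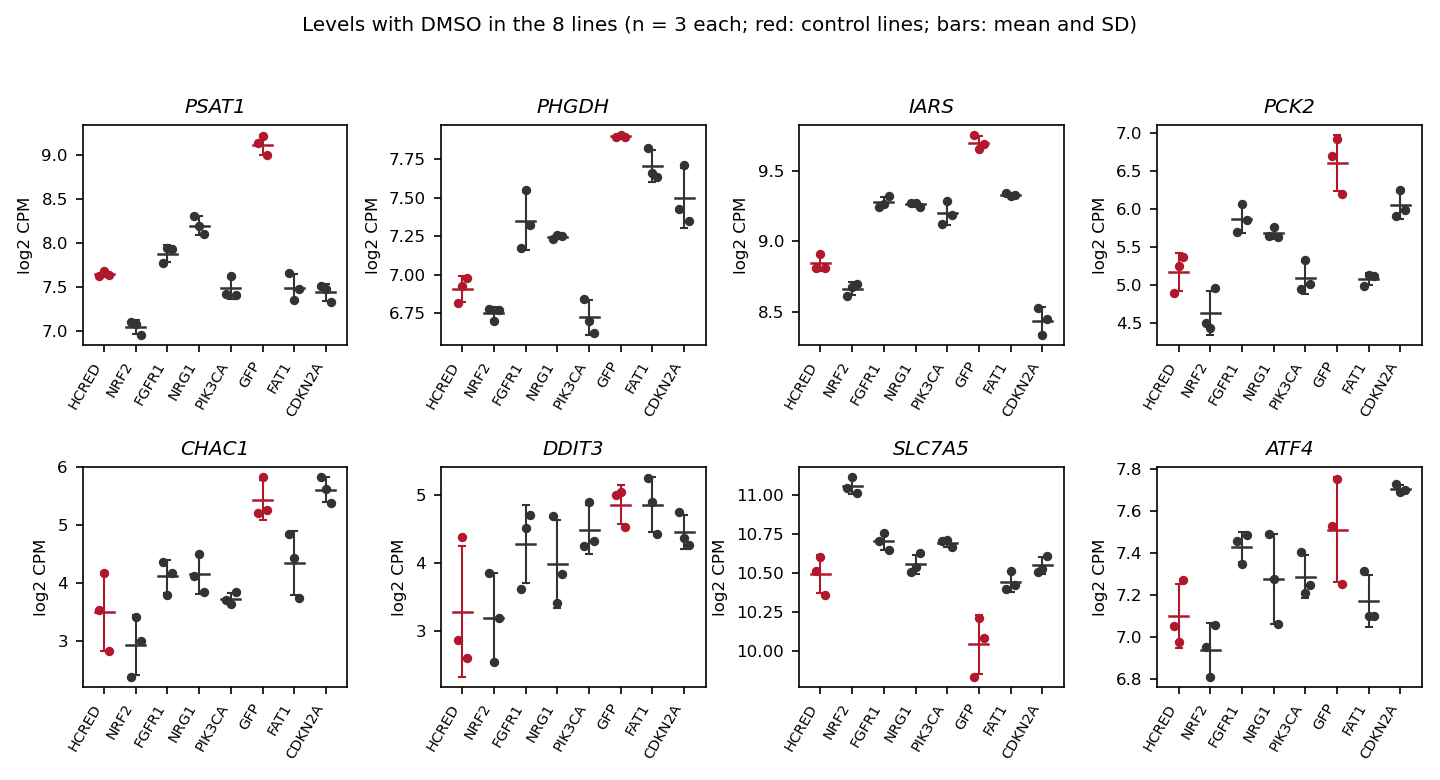
Levels in log2 CPM (y axis) of 8 members in each DMSO sample of the 8 lines (x axis), 3 samples per line. Points are samples, bars are the mean ± SD, and the controls HCRED and GFP are in red. PSAT1 lies between 8.99 and 9.21 in GFP cells, above the samples of every other line, while SLC7A5 is lowest there.

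In cells with loss of FAT1, an atypical cadherin, more members fell than rose relative to the GFP control. With DMSO, 2 members rose and 20 fell, 53.7% of the members against 25.9% of all genes (11.8% rose and 14.1% fell). Their median log2 fold change was -0.40, and that of all genes was 0.01. The samples with CSC, BaP or NNK, which are other libraries, gave 4 that rose and 26 that fell (39.5% of all genes, with 19.4% that rose and 20.1% that fell), and all 22 calls with DMSO were called in the same direction there. These differences are relative to GFP cells, in which the members stood apart from HCRED cells. In a comparison chosen after the data were seen, the mean of 19 of the 20 members that fell, and of both that rose, lay nearer to HCRED than to GFP cells. The members counted were those called as different from GFP, so the count is partly fixed by that choice. No share over all called genes is given beside it, and no conclusion is drawn from it. For PSAT1 the mean with DMSO was 7.49 ± 0.16 log2 CPM (SD, n = 3) in FAT1, 7.65 ± 0.03 in HCRED and 9.11 ± 0.11 in GFP cells, and for VLDLR it was 4.91 ± 0.05, 4.34 ± 0.15 and 6.06 ± 0.13. A change that belongs to FAT1 and one that belongs to the GFP control cannot be told apart in this design.

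PSAT1 was at 7.66, 7.35 and 7.47 log2 CPM in the FAT1 samples with DMSO, below all GFP samples, and its log2 fold change was -1.64 ± 0.09 (adjusted p = 8.33e-17) with DMSO and -1.78 ± 0.07 (adjusted p = 5.4e-34) with the carcinogens. PCK2 was at 4.99, 5.13 and 5.13 and fell by 1.58 ± 0.19 (adjusted p = 5.51e-08). GPT2 fell by 0.68, ALDH1L2 by 0.63, CEBPG by 0.54, SLC1A4 by 0.46 and MTHFD2 by 0.44, and the SLC1A4 call was lost with DESeq2 and without FAT1 replicate 3. PHGDH passed only with the carcinogens, at -0.76 (adjusted p = 9.04e-17), and a difference between the treatments was not tested for it. Among transporters, SLC6A9 was at 4.81, 3.46 and 4.13 and fell by 1.56 ± 0.28 (adjusted p = 3.59e-05), SLC7A1 was at 7.70, 7.63 and 7.48 and fell by 0.82, and SLC1A5 was at 7.43, 7.53 and 7.31 and fell by 0.71. The FAT1 samples lay below the GFP samples for each of these 3 transporters. SLC7A5 was at 10.40, 10.51 and 10.42, above GFP, with a log2 fold change of 0.37 (adjusted p = 5.78e-06) that was 0.12 (adjusted p = 0.095) with the GC and length trend removed. DDIT4 rose without overlap (8.75, 8.60 and 8.56), by 0.72 ± 0.08 (adjusted p = 1.14e-08). With the carcinogens alone, CEBPB and SLC3A2 also rose, by 0.55 and 0.22, and NUPR1, SESN2, MARS, TRIB3 and XPOT fell by 0.18 to 0.54. Of these, NUPR1, SESN2, TRIB3 and XPOT each lost their call without either of 2 replicate numbers. For this and the other lines, a difference between DMSO and the carcinogens was not tested.

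The synthetase genes GARS, WARS, AARS, NARS and IARS fell in FAT1 cells with DMSO by 0.40 to 0.62. VLDLR (4.92, 4.85 and 4.95), CHAC1 (4.85, 4.44 and 3.74) and STC2 (5.81, 4.60 and 5.17) were below all GFP samples and fell by 1.22, 1.12 and 0.97. DDIT3, in contrast to these targets, was at 5.25, 4.89 and 4.43 in FAT1 cells, overlapping GFP, with a log2 fold change of 0.04 (adjusted p = 0.925), and of -0.05 with the carcinogens (adjusted p = 0.872). ATF4 was at 7.31, 7.10 and 7.10, with 1 FAT1 sample inside the GFP range, and fell by 0.35 ± 0.11 (adjusted p = 0.022). Without FAT1 replicate 2 or 3, or GFP replicate 1 or 2, ATF4 did not pass, with an adjusted p of up to 0.182. With the carcinogens ATF4 fell by 0.23 (adjusted p = 0.00893), a call lost without replicate 1 (adjusted p = 0.345). ASNS had 5, 0 and 0 reads in FAT1 and 5, 5 and 4 in GFP samples, so its call (-2.13 ± 0.77, adjusted p = 0.0386) rests on a single FAT1 library with reads and was lost with DESeq2, with edgeR, with the GC and length trend removed and without either FAT1 replicate 2 or 3 or GFP replicate 1 or 2 (adjusted p of up to 0.202). ASNS fell by 1.23 with the carcinogens (adjusted p = 0.0214), lost with DESeq2, with edgeR and without replicate 3 (adjusted p of 0.287).

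In cells with loss of CDKN2A, the locus of the cell cycle inhibitor p16, the members had a mixed pattern against the same GFP control. With DMSO 6 members rose and 16 fell (53.7% of members, and 37.5% of all genes with 18.9% that rose and 18.7% that fell), and with the carcinogens 9 rose and 17 fell (50% of all genes, with 25.5% that rose and 24.5% that fell). With the GC and length trend removed the latter counts were 6 and 19. No share of all genes in that setting is given, so these counts cannot be read against the 50%. Of the 22 calls with DMSO, 20 were called in the same direction with the carcinogens, all but EPRS and DDIT4. The mean of 12 of the 16 members that fell with DMSO, and of 5 of the 6 that rose, lay nearer to HCRED than to GFP cells. As for FAT1, this count is partly fixed by the choice of members that differ from GFP, and no conclusion is drawn from it. A change that belongs to CDKN2A and one that belongs to the GFP control cannot be told apart either.

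PSAT1 was at 7.51, 7.48 and 7.33 in CDKN2A cells with DMSO and fell by 1.71 ± 0.08 (adjusted p = 7.69e-28). IARS was at 8.52, 8.34 and 8.45, against 9.76, 9.65 and 9.69 in GFP cells, and fell by 1.30 ± 0.06 (adjusted p = 6.2e-28). IARS in CDKN2A cells was also the lowest of the 8 lines. ALDH1L2, a mitochondrial folate dehydrogenase, was at 6.09, 6.32 and 5.95 and fell by 1.29 ± 0.13 (adjusted p = 8.3e-13), SLC6A9 was at 4.37, 4.43 and 4.13 and fell by 1.40 ± 0.24 (adjusted p = 1.65e-06), and SLC7A1 was at 7.37, 7.39 and 7.57 and fell by 0.98 ± 0.09 (adjusted p = 2.55e-15). These genes did not overlap between the lines. Smaller falls, of 0.25 to 0.80, were called for VLDLR, NARS, CEBPG, PCK2, SHMT2, XPOT, PHGDH, SARS, SLC38A2, MARS and EPRS. The MARS call was lost with DESeq2 and without any of 3 libraries. With the carcinogens alone AARS and GPT2 fell by 0.24 and 0.39, and ATF3, CEBPB and STC2 rose by 0.55, 0.53 and 0.29. The CEBPB call was lost with the GC and length trend removed and that of STC2 without replicate 3.

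TRIB3 rose in CDKN2A cells, where it was at 6.36, 6.75 and 6.60 with DMSO against 5.89, 5.75 and 5.48 in GFP cells. Its log2 fold change was 0.86 ± 0.15 (adjusted p = 3.97e-06) with DMSO and 0.93 ± 0.09 (adjusted p = 1.9e-13) with the carcinogens. PPP1R15A (GADD34), the phosphatase subunit that reverses eIF2 phosphorylation, was at 5.80, 5.99 and 5.90 against 5.28, 5.47 and 4.83 and rose by 0.72 ± 0.18 (adjusted p = 0.000989). Both feedback genes were higher in all 3 CDKN2A samples than in any GFP sample. CTH, a transsulfuration enzyme with a mean of 10.1 reads, was at 4.17, 4.13 and 4.78 against 3.15, 3.43 and 3.94 and rose by 0.90 ± 0.33 (adjusted p = 0.0258). The CTH call was lost without CDKN2A replicate 3, GFP replicate 1 or GFP replicate 2 (adjusted p of up to 0.165), while with the carcinogens CTH rose by 1.63 ± 0.25 (adjusted p = 1.89e-07) and kept its call without any of the replicates. SLC7A5, SLC3A2 and DDIT4 rose by 0.36 to 0.50. ATF4 was at 7.73, 7.69 and 7.70, within the GFP range (0.18, adjusted p = 0.147), and DDIT3 at 4.74, 4.36 and 4.27 (-0.42, adjusted p = 0.182, and 0.17, adjusted p = 0.49 with the carcinogens). ASNS, with 2 to 8 reads in the CDKN2A samples with DMSO, did not pass with DMSO (-0.37, adjusted p = 0.653) or with the carcinogens (0.05, adjusted p = 0.918). With the carcinogens ATF4 rose by 0.22 (adjusted p = 0.0097), which was lost without replicate 2 (adjusted p = 0.386) and was 0.03 (adjusted p = 0.74) with the GC and length trend removed.

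**Figure D2:**
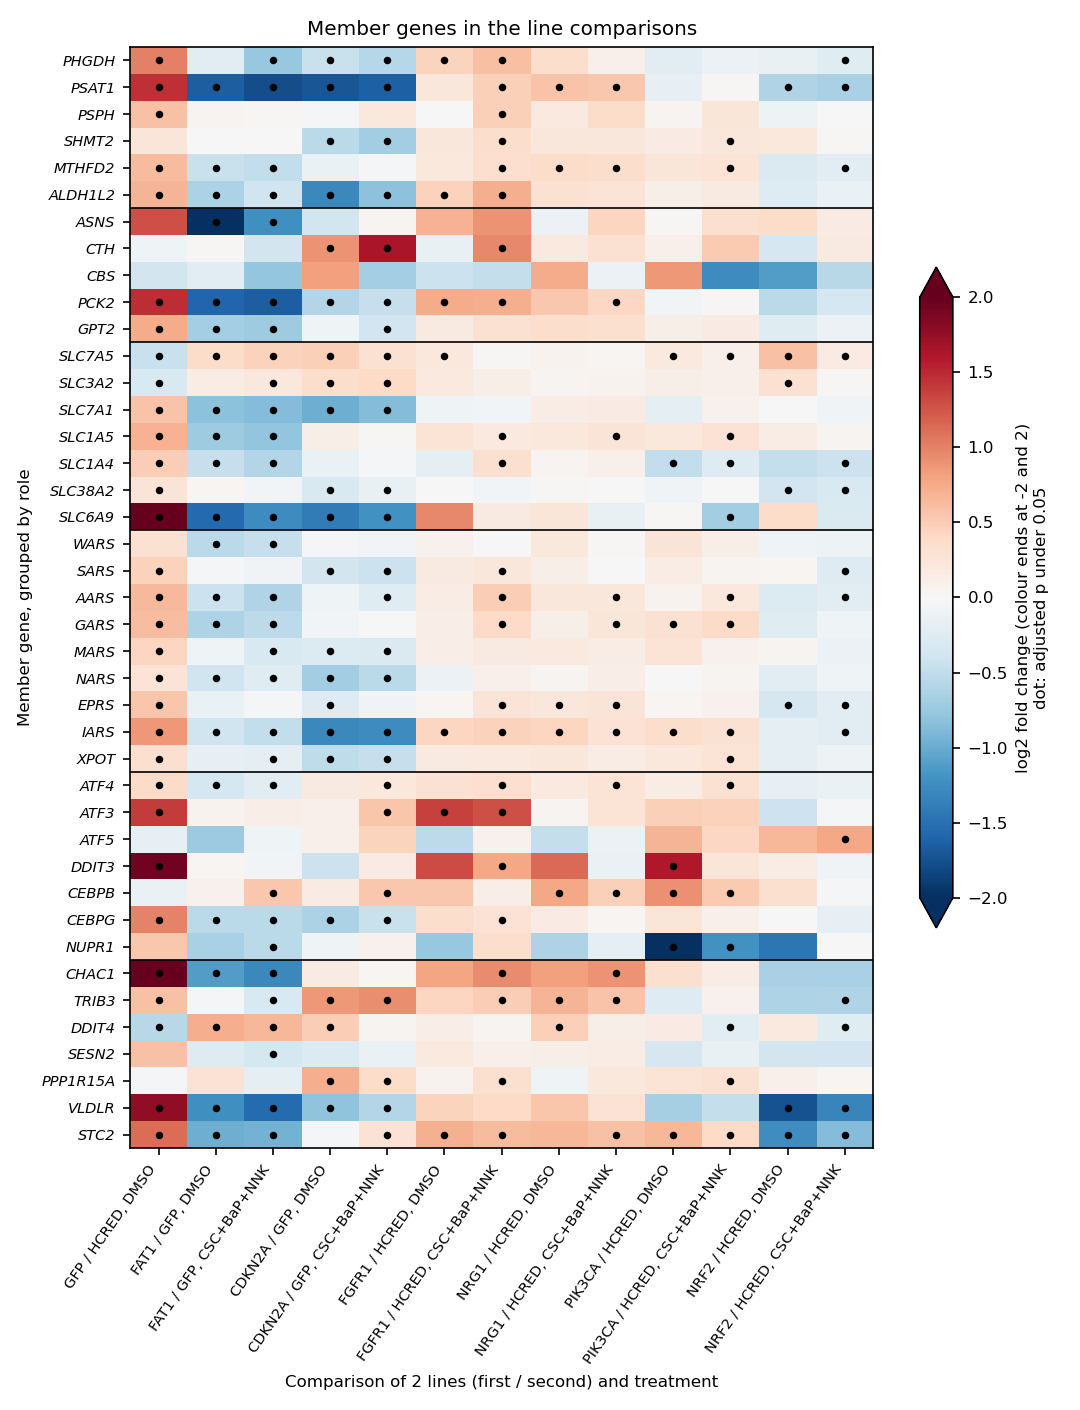
Log2 fold change of the 41 members (rows) in 13 comparisons of a line with its control (columns), with DMSO or with CSC, BaP or NNK. Colours end at ±2, and a dot marks an adjusted p under 0.05 in limma-voom. Members are mostly lower in FAT1 cells (20 fell and 2 rose with DMSO), mixed in CDKN2A cells, and higher where called in FGFR1 and NRG1 cells.

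In cells that overexpressed FGFR1, a receptor tyrosine kinase, the members that changed were higher. With DMSO 7 rose and 0 fell, 17.1% of the members against 1.83% of all genes (1.06% rose and 0.771% fell), with 3 against 3 samples (DESeq2 called 1). With the carcinogens, where 8 FGFR1 and 9 HCRED samples were compared, 23 rose and 0 fell (56.1% against 9.23% of all genes, with 4.59% that rose and 4.64% that fell), and 6 of the 7 calls with DMSO were among them, all but SLC7A5. ATF3 was at 4.71, 4.51 and 5.14 in FGFR1 cells with DMSO and 3.43, 3.61 and 3.58 in HCRED cells, with no overlap and a rise of 1.37 ± 0.33 (adjusted p = 0.00951). This call was lost without FGFR1 replicate 3 or HCRED replicate 1 or 3 (adjusted p of up to 0.121), and the rise with the carcinogens was 1.28 ± 0.20 (adjusted p = 1.63e-06). IARS was at 9.25, 9.27 and 9.32 against 8.81, 8.91 and 8.81 and rose by 0.43 ± 0.07 (adjusted p = 1.11e-05), the call with DMSO that held without any single library. PCK2 (5.70, 6.06 and 5.86), STC2 (5.89, 5.65 and 5.73), PHGDH (7.17, 7.55 and 7.32) and ALDH1L2 (7.14, 7.11 and 7.12) were above all HCRED samples with DMSO and rose by 0.44 to 0.74. Without HCRED replicate 1 or 3, 2 members were called with DMSO, and 3 and 4 were called without FGFR1 replicate 2 and 3.

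With the carcinogens all 6 serine, glycine and one-carbon genes rose in FGFR1 cells, from SHMT2 and MTHFD2 (0.35 and 0.34) through PSPH and PSAT1 (0.47 and 0.48) to PHGDH (0.61 ± 0.08, adjusted p = 4.11e-08) and ALDH1L2 (0.73 ± 0.09, adjusted p = 3.17e-09). CHAC1 rose by 0.94 ± 0.18 (adjusted p = 0.000109), CTH by 0.96, PCK2 by 0.73, STC2 by 0.63, TRIB3 by 0.50 and AARS by 0.50. The CTH call was lost without replicate 1 or 3 (adjusted p of up to 0.202), with DESeq2 (adjusted p = 0.0761) and with the replicate number as a block (adjusted p = 0.0751). The call of TRIB3 was lost without replicate 2 (adjusted p = 0.107), that of PSPH without replicate 1 or 2 (adjusted p of up to 0.0944) and that of SHMT2 without replicate 3 (adjusted p = 0.0603). EPRS and GARS rose by 0.25 and 0.38 and kept their calls without any replicate number, while CEBPG, PPP1R15A, SARS, SLC1A4 and SLC1A5, which rose by 0.20 to 0.33, did not. ATF4 rose by 0.33 ± 0.08 (adjusted p = 0.00139), and DDIT3 by 0.77 ± 0.21 (adjusted p = 0.0122). The ATF4 call was lost without replicate 1 (adjusted p = 0.0605), and that of DDIT3 without replicate 2 or 3 (adjusted p of up to 0.142). Without replicate 3, 15 members were called. With DMSO ATF4 was at 7.45, 7.35 and 7.49, above all HCRED samples, and its difference was 0.31 (adjusted p = 0.155), while DDIT3 was at 3.62, 4.51 and 4.71, overlapping HCRED (1.31 ± 0.41, adjusted p = 0.0879). ASNS did not pass in either set (adjusted p = 0.791 with DMSO and 0.285 with the carcinogens).

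Overexpression of NRG1, a ligand of ERBB receptors, gave 7 members that rose and 0 that fell with DMSO (1.96% of all genes, with 1.04% that rose and 0.917% that fell) and 13 and 0 with the carcinogens (6.14% of all genes, with 2.9% that rose and 3.23% that fell). Of the 7 calls with DMSO, 6 were called again, all but DDIT4. Without HCRED replicate 1 or NRG1 replicate 1, 4 members were called with DMSO, and 3 without NRG1 replicate 2. PSAT1 was at 8.30, 8.19 and 8.09 with DMSO, above all HCRED samples, and rose by 0.57 ± 0.10 (adjusted p = 2.75e-06) and, with the carcinogens, by 0.54 ± 0.07 (adjusted p = 8.21e-08). IARS was at 9.27, 9.27 and 9.24 and rose by 0.43 ± 0.07 (adjusted p = 1.29e-06), and DDIT4 at 8.94, 8.88 and 8.96 rose by 0.48 ± 0.08 (adjusted p = 8.67e-07). All 3 of these genes separated from HCRED and kept their calls without any single library. CEBPB, a C/EBP factor, was at 5.87, 6.23 and 6.17 and rose by 0.77 ± 0.19 (adjusted p = 0.00562), lost without HCRED replicate 1 or NRG1 replicate 2 (adjusted p of up to 0.259). TRIB3 was at 5.79, 5.76 and 5.82 against 5.23, 5.25 and 4.94, a rise of 0.69 ± 0.20 (adjusted p = 0.043) that no fit without a single library kept (adjusted p of 0.0625 to 0.284). MTHFD2 and EPRS rose by 0.37 and 0.23, and their calls, like those of CEBPB and TRIB3, were lost with DESeq2. With the carcinogens CHAC1 rose by 0.89 ± 0.19 (adjusted p = 0.00113), STC2 by 0.58, TRIB3 by 0.57 and ATF4 by 0.27 ± 0.08 (adjusted p = 0.0239), while ATF4 with DMSO did not pass (0.19, adjusted p = 0.52). AARS, EPRS, GARS, MTHFD2, PCK2 and SLC1A5 rose by 0.22 to 0.42 with the carcinogens, each with a call that was lost without at least 1 replicate number. The CHAC1 and TRIB3 calls were lost without replicate 2 (adjusted p of 0.123 and 0.128), and that of ATF4 without replicate 1 or 2 (adjusted p of up to 0.42). Without replicate 1, 6 members were called with the carcinogens, and 7 without replicate 2. DDIT3 did not pass with DMSO (1.13, adjusted p = 0.137) or the carcinogens (-0.13, adjusted p = 0.859), nor did ASNS (adjusted p = 0.976 with DMSO and 0.731 with the carcinogens).

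Overexpression of PIK3CA, the catalytic subunit of PI3-kinase, gave 6 members that rose and 2 that fell with DMSO (19.5% of members, and 8.45% of all genes with 4.59% that rose and 3.86% that fell) and 12 and 4 with the carcinogens (21.7% of all genes, with 10.9% that rose and 10.7% that fell). DDIT3 was at 4.24, 4.90 and 4.33 with DMSO against 2.87, 4.38 and 2.60 in HCRED cells and rose by 1.60 ± 0.38 (adjusted p = 0.00297). The second HCRED sample lay within the PIK3CA range, the call was lost without HCRED replicate 1 (adjusted p = 0.0541), and DDIT3 did not pass with the carcinogens (0.24, adjusted p = 0.54). CEBPB was at 6.41, 6.16 and 6.13 against 4.97, 5.63 and 5.47, without overlap, and rose by 0.91 ± 0.18 (adjusted p = 0.000195) with DMSO and 0.52 ± 0.09 (adjusted p = 3.3e-06) with the carcinogens. NUPR1, a small stress-induced chromatin protein with a mean of 9.63 reads, was at 2.04, 2.29 and 2.56 against 4.07, 4.48 and 3.32 and fell by 2.07 ± 0.51 (adjusted p = 0.00351) and, with the carcinogens, by 1.22 ± 0.35 (adjusted p = 0.00766). The NUPR1 groups did not overlap with DMSO, and the call with the carcinogens was lost without replicate 3 (adjusted p = 0.122). STC2, IARS, GARS and SLC7A5 rose by 0.19 to 0.67 and SLC1A4 fell by 0.49 with DMSO, and the calls of STC2, GARS and SLC1A4 were each lost without 1 or more of the libraries. With DESeq2 the calls of DDIT3, STC2, GARS, SLC7A5 and SLC1A4 were lost. With the carcinogens alone, AARS, MTHFD2, PPP1R15A, SHMT2, SLC1A5 and XPOT rose by 0.21 to 0.31 and DDIT4 and SLC6A9 fell by 0.22 and 0.69, and of these 8 calls that of SLC1A5 alone held without any replicate number. ATF4 did not pass with DMSO (0.14, adjusted p = 0.513) and rose by 0.31 ± 0.07 (adjusted p = 0.000292) with the carcinogens, a call kept without any of the replicates. Without replicate 1, 10 members were called with the carcinogens. ASNS differed by 0.02 with DMSO and 0.33 with the carcinogens and was not called (adjusted p = 0.994 and 0.715).

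Overexpression of NRF2, the factor of the antioxidant response, gave 2 members that rose and 5 that fell with DMSO (6.75% of all genes, with 3.24% that rose and 3.51% that fell) and 2 and 13 with the carcinogens (15.4% of all genes, with 7.03% that rose and 8.34% that fell). With the GC and length trend removed the counts with DMSO were 1 and 8. No share of all genes in that setting is given, so these counts cannot be read against the 6.75%. SLC7A5 was at 11.05, 11.12 and 11.02 with DMSO, the highest of the 8 lines, and rose by 0.58 ± 0.04 (adjusted p = 1.81e-19). SLC3A2 was at 8.99, 8.98 and 8.93 and rose by 0.31 ± 0.07 (adjusted p = 0.00272), a call that was lost with DESeq2 (adjusted p = 0.055) and with the GC and length trend removed (0.22, adjusted p = 0.0501). Both LAT1 subunits were above all HCRED samples, while with the carcinogens SLC7A5 rose by 0.17 ± 0.02 (adjusted p = 8.23e-08) and SLC3A2 was not called. PSAT1 was at 7.10, 7.08 and 6.96, the lowest of the 8 lines, and fell by 0.60 ± 0.11 (adjusted p = 7.54e-05) with DMSO and 0.64 ± 0.08 (adjusted p = 6.15e-09) with the carcinogens. VLDLR at 3.50, 1.75 and 3.36 fell by 1.75 ± 0.46 (adjusted p = 0.00818), and STC2 at 4.68, 3.58 and 3.36 fell by 1.25 ± 0.31 (adjusted p = 0.00446). VLDLR had only 1 to 9 reads in these NRF2 samples and 11 to 22 in the HCRED samples. The VLDLR call was lost without NRF2 replicate 2 (adjusted p = 0.153) and the STC2 call without NRF2 replicate 3 (adjusted p = 0.0585), and both were lost with DESeq2 (adjusted p = 0.202 and 0.16), while with the carcinogens both fell, by 1.31 ± 0.28 (adjusted p = 0.000256) and 0.86 ± 0.16 (adjusted p = 3.95e-05). SLC38A2 and EPRS fell by 0.38 and 0.34 with DMSO, and by 0.30 and 0.23 with the carcinogens, where AARS, DDIT4, IARS, MTHFD2, PHGDH, SARS and SLC1A4 fell by 0.21 to 0.43. Of these 9 calls with the carcinogens, those of SLC38A2, DDIT4 and SLC1A4 held without any replicate number. With the carcinogens TRIB3 fell by 0.60 (adjusted p = 0.000291) and ATF5, which overlaps NUP62, rose by 0.78 (adjusted p = 0.00279, and 0.068 without replicate 3). ATF4 (-0.17, adjusted p = 0.497), DDIT3 (0.14, adjusted p = 0.92) and ASNS (0.37, adjusted p = 0.856) did not pass with DMSO, nor with the carcinogens (adjusted p = 0.273, 0.885 and 0.892).

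Over all 8 lines, each chemical was compared with DMSO in a model with the line as covariate. The 3 comparisons share the 24 DMSO samples, so their values stand side by side and are not replicates of each other. With CSC 18 members rose and 9 fell, 65.9% of the members against 55.2% of all genes (27.1% rose and 28.1% fell). With BaP 19 rose and 11 fell (73.2% against 51.3% of all genes, with 25.1% that rose and 26.2% that fell), and with NNK 13 rose and 11 fell (58.5% against 52% of all genes, with 25.3% that rose and 26.7% that fell). More than 50% of all genes were called with each chemical, and the members' shares are to be read against that. A gene's change also moved with its GC content. From the lowest to the highest of 5 equal groups of genes ranked by GC content, the median log2 fold change went from -0.28 to 0.44 with CSC, from -0.24 to 0.42 with BaP and from -0.26 to 0.42 with NNK, while depth was also lower in the exposed samples. The median also moved in comparisons of lines with DMSO. It went from 0.11 to -0.19 in GFP and from -0.11 to 0.18 in NRF2 against HCRED cells. Against GFP cells it went from -0.14 to 0.25 in FAT1 and from -0.16 to 0.27 in CDKN2A cells. For FGFR1, NRG1 and PIK3CA it went from -0.01 to 0.04, -0.03 to 0.03 and -0.00062 to 0.0023. How far the members' changes between lines follow this was not tested. With the trend of GC content and length removed, 11 members rose and 3 fell with CSC (33.4% of all genes, 15.5% up and 17.9% down), 12 and 5 with BaP (24.9%, 10.8% up and 14.1% down), and 6 and 7 with NNK (17.3%, 7.74% up and 9.57% down).

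**Figure D3:**
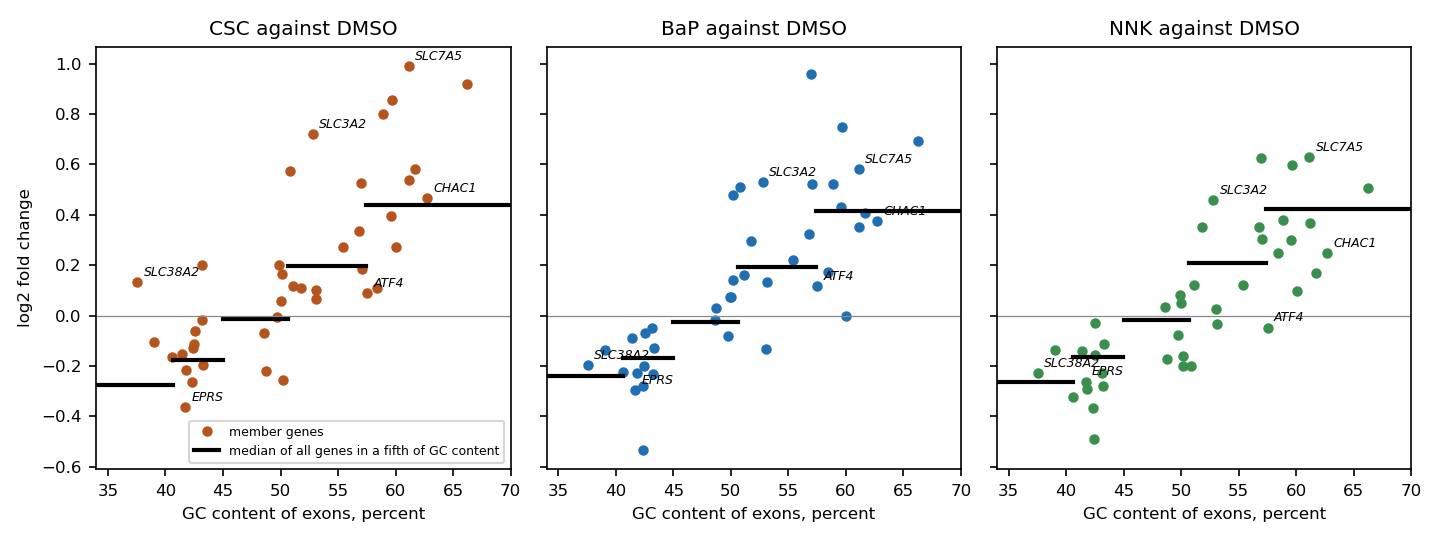
Log2 fold change of each member (y axis) against the GC content of its exons in percent (x axis) for CSC, BaP and NNK over all lines, with the median of all tested genes in 5 equal groups of GC content. The median of all genes climbs from -0.28 to 0.44 with CSC, and members of high GC content lie mostly above 0.

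The transporters of the LAT1 exchanger rose with each chemical by either reckoning. SLC7A5 ranged from 9.83 through a median of 10.57 to 11.12 log2 CPM with DMSO and from 11.14 through 11.61 to 11.80 with CSC, so the groups did not overlap. It ranged from 10.65 through 11.24 to 11.54 with BaP and from 10.75 through 11.25 to 11.55 with NNK, overlapping DMSO. Its log2 fold changes were 0.99 ± 0.03 with CSC (adjusted p = 1.54e-56), 0.58 ± 0.04 with BaP (adjusted p = 8.4e-31) and 0.63 ± 0.04 with NNK (adjusted p = 3.92e-33), and 0.55, 0.17 and 0.21 with the GC and length trend removed, all still called. SLC3A2 ranged from 8.28 through 8.75 to 8.99 with DMSO and from 9.09 through 9.44 to 9.62 with CSC, again without overlap, and rose by 0.72, 0.53 and 0.46 (0.55, 0.37 and 0.29 with the trend removed). Both genes were higher in 8 of 8 lines with each chemical. SLC1A5 rose by 0.54, 0.35 and 0.37, which became 0.09, -0.08 and -0.04 with the trend removed. SLC38A2 was called upward with CSC (0.13, and 0.44 with the trend removed) and downward with BaP and NNK (-0.20 and -0.23, and 0.06 for both with the trend removed).

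Among feedback genes, TRIB3 ranged from 4.36 through 5.57 to 6.75 with DMSO and from 5.36 through 6.35 to 7.51 with CSC, and rose by 0.86 ± 0.07 with CSC (adjusted p = 1e-22), 0.75 ± 0.07 with BaP (adjusted p = 4.45e-18) and 0.60 ± 0.07 with NNK (adjusted p = 9.43e-13). With the trend removed these were 0.46, 0.36 and 0.24 and remained called. PPP1R15A ranged from 4.60 through 5.36 to 5.99 with DMSO and from 5.78 through 6.33 to 7.03 with BaP, where it had the largest change of the members, 0.96 ± 0.07 (adjusted p = 2.43e-25). It rose by 0.52 with CSC and 0.62 with NNK, and by 0.23, 0.67 and 0.35 with the trend removed. DDIT4 rose by 0.80 ± 0.04 (adjusted p = 1.36e-41), 0.52 and 0.38, and with the trend removed by 0.45 and 0.19 with CSC and BaP, while the 0.08 with NNK was not called (adjusted p = 0.14). The TRIB3, PPP1R15A and DDIT4 means were higher in 8 of 8 lines with each chemical, although the ranges over all lines overlapped those with DMSO for each gene and chemical. CHAC1 and SESN2, a leucine sensor of mTORC1, rose by 0.25 to 0.47, and neither was called for any chemical with the trend removed. The CHAC1 call with NNK was also lost without replicate 2 or 3 (adjusted p of up to 0.235).

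STC2 differed in direction between chemicals. It ranged from 3.36 through 5.72 to 6.31 with DMSO, from 4.62 through 6.23 to 6.97 with CSC and from 3.40 through 5.52 to 6.23 with NNK, so the ranges overlapped across lines. It rose by 0.57 ± 0.07 with CSC (adjusted p = 3.1e-12) and 0.51 ± 0.07 with BaP (adjusted p = 1.63e-09), in 8 of 8 lines each, and fell by 0.20 ± 0.08 with NNK (adjusted p = 0.0314), with a lower mean in 8 of 8 lines. The size of the NNK difference varied between lines. Means with DMSO and NNK were 5.70 and 5.69 in NRG1, 3.87 and 3.85 in NRF2, and 5.20 and 4.89 in FAT1 cells. The call with NNK was lost without replicate 1 or 3 (adjusted p of up to 0.239). With the trend removed the values were 0.47, 0.41 and -0.29, all called, and the difference between chemicals was not itself tested. VLDLR fell with BaP (-0.53) and NNK (-0.49).

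CEBPB was the most changed of the transcription factors. It ranged from 4.97 through 5.57 to 6.41 with DMSO and from 5.66 through 6.49 to 7.13 with CSC, with overlap across lines. It rose by 0.92 ± 0.06 with CSC (adjusted p = 4.42e-28), 0.69 with BaP and 0.51 with NNK, or 0.33, 0.16 and 0.02 (the last not called) with the trend removed. CEBPG fell by 0.22 to 0.29, and no longer passed with the trend removed. ATF3 rose with BaP, by 0.48 (adjusted p = 6.52e-05, and 0.41 with the trend removed). The ATF4 transcript had medians of 7.27 with DMSO, 7.38 with CSC, 7.44 with BaP and 7.20 with NNK, in ranges that overlapped throughout. Its log2 fold changes were 0.09 (adjusted p = 0.0615), 0.12 (adjusted p = 0.0119) and -0.05 (adjusted p = 0.353). With the trend removed they were -0.22 (adjusted p = 6.01e-06), -0.18 (adjusted p = 0.000352) and -0.33. In that setting ATF4 was thus called as lower with CSC and BaP, so its direction with these chemicals depends on the setting. The rise called with BaP was lost without replicate 3 (adjusted p = 0.171). DDIT3, with medians between 4.09 and 4.37 in the 4 treatments, did not pass for any chemical (-0.22, 0.03 and -0.17), and neither did ASNS (0.20, -0.23 and -0.28).

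Most enzyme and synthetase genes changed little. EPRS fell by 0.36 with CSC, 0.30 with BaP and 0.26 with NNK, NARS by 0.26, 0.28 and 0.37, and XPOT, the tRNA exporter, by 0.16, 0.22 and 0.32. With the trend removed, EPRS remained called with CSC and BaP (-0.16 and -0.12), NARS with BaP and NNK (-0.12 and -0.17) and XPOT with NNK (-0.11). PHGDH rose with BaP (0.30) and NNK (0.35), and by 0.17 and 0.19 with the trend removed. SHMT2 rose by 0.32 to 0.35 and was not called with the trend removed. PCK2 rose by 0.19, 0.52 and 0.30, of which the BaP change alone was still called with the trend removed (0.22, adjusted p = 0.0156). SLC6A9 rose by 0.58 with CSC and 0.41 with BaP, which became 0.10 and -0.05 (not called) with the trend removed. SLC7A1 was called upward with CSC (0.10) and downward with BaP (-0.13), and was -0.09 (not called) and -0.30 (called) with the trend removed. The remaining calls were of at most 0.27 on the log2 scale. They were upward for GPT2, MARS, SLC1A4 and AARS and downward for ALDH1L2, GARS, IARS, MTHFD2 and PSAT1, each with 1 or more of the chemicals. With the trend removed none of these changes kept both its call and its direction, and GARS and IARS were called upward with CSC (0.13 and 0.07) and BaP (both 0.11). GARS and IARS had the largest lengths of the members in that trend, 17366 and 22418 bases over the union of GENCODE exons. How far their change of direction depends on these lengths was not tested.

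**Figure D4:**
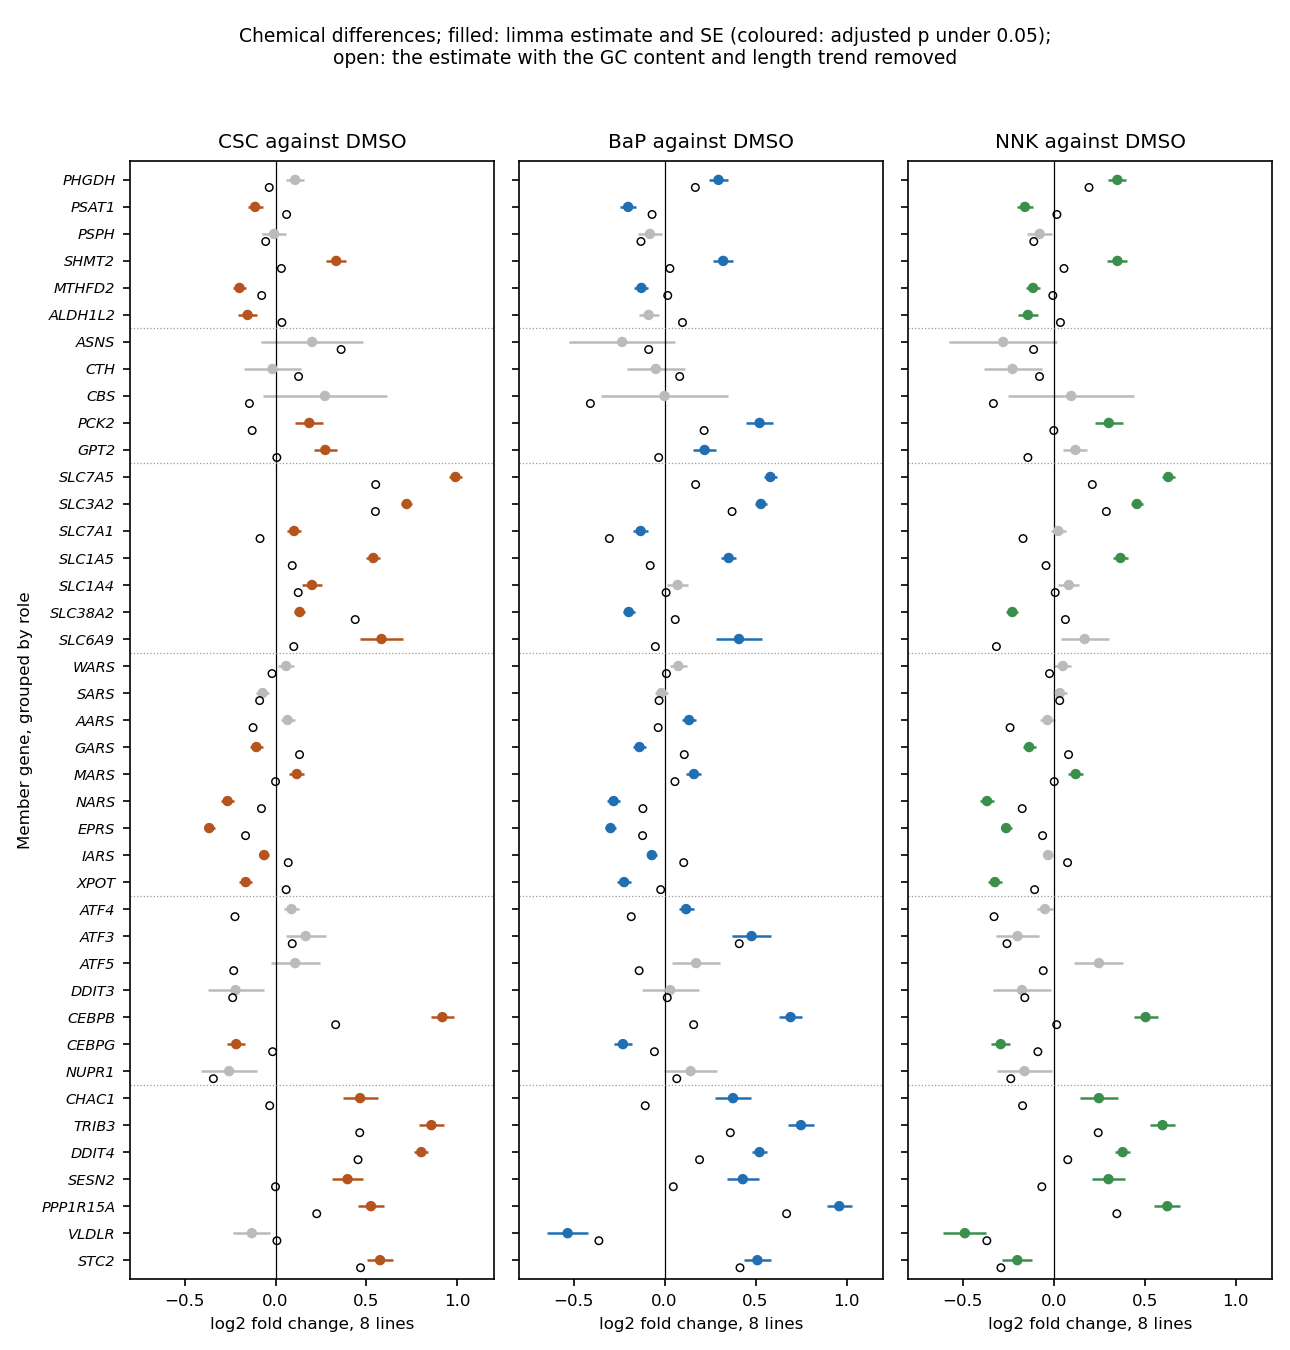
Log2 fold change ± SE of the 41 members against DMSO over all lines, 1 panel per chemical, with coloured points for members called in limma-voom. Open circles give the value with the GC and length trend removed. SLC7A5, SLC3A2, TRIB3 and PPP1R15A stay above 0 in all 3 panels by both values.

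The response of a few members differed between lines. A moderated F test over the 7 line terms of each chemical called 3 members for CSC, 4 for BaP and 1 for NNK, where 0.812%, 0.34% and 0.0764% of all genes were called. SLC7A5 was called for CSC (F = 10.19, adjusted p = 6.23e-07) and BaP (F = 8.484, adjusted p = 2.9e-05). In NRF2 cells SLC7A5 was at 11.05, 11.12 and 11.02 with DMSO and 11.77, 11.80 and 11.78 with CSC, a difference of 0.72. In FAT1 cells it went from 10.40, 10.51 and 10.42 to 11.71, 11.72 and 11.70, a difference of 1.27, and HCRED (1.16) and GFP (1.15) lay near FAT1. CDKN2A cells, with a mean of 10.55 with DMSO, moved by 0.76, so lines with a high and a middle starting level had the smallest differences with CSC. With BaP the difference ranged from 0.21 in NRF2 to 0.85 in NRG1 cells. The NRG1 samples with BaP spanned 11.13 to 11.54 log2 CPM. Their replicate 1 differed from replicates 2 and 3 by a chi-square per degree of freedom of 2.86 and 2.75, the largest of any group.

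DDIT4 was called for CSC (F = 8.833, adjusted p = 8.65e-06), BaP (F = 6.224, adjusted p = 0.00182) and NNK (F = 8.726, adjusted p = 4.4e-05). With NNK, CDKN2A cells went from 8.41, 8.41 and 8.45 to 8.29, 8.45 and 8.57, a difference of 0.01, and HCRED cells from 8.51, 8.48 and 8.36 to 9.24, 9.05 and 9.24, a difference of 0.73. The 2 groups of CDKN2A samples overlapped and those of HCRED did not. With CSC the differences ran from 0.54 in NRF2 and CDKN2A to 1.11 in GFP cells, which started lowest (7.87, 7.95 and 7.87) and reached 8.99, 9.06 and 8.98. With BaP they ran from 0.27 in NRF2 to 0.75 in FAT1 cells.

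PHGDH was called for BaP (F = 5.187, adjusted p = 0.0152). GFP cells went from 7.89, 7.91 and 7.90 to 8.59, 8.68 and 8.44, a difference of 0.67, and NRF2 cells from 6.78, 6.70 and 6.77 to 6.58, 6.87 and 6.90, a difference of 0.04. SLC3A2 was called for BaP (F = 4.898, adjusted p = 0.0247), from 0.26 in NRF2 to 0.80 in CDKN2A cells. DDIT3 was called for CSC (F = 4.296, adjusted p = 0.0369), with a difference of -0.88 in GFP cells (3.97, 4.12 and 3.84 with CSC) and 0.99 in HCRED cells (4.23, 4.50 and 4.11 with CSC). The 2 controls did not overlap with DMSO, where GFP was higher, and overlapped with CSC. The DDIT3, PHGDH and SLC3A2 calls were each lost in every fit that left out 1 replicate number, and DDIT4 with BaP was lost without replicate 2. With the GC and length trend removed, the DDIT4 calls for BaP (F = 4.255, adjusted p = 0.0775) and NNK (F = 4.544, adjusted p = 0.121) and the SLC3A2 call for BaP (adjusted p = 0.0601) were lost, and SLC7A5 was called for NNK (F = 5.289, adjusted p = 0.0309).

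**Figure D5:**
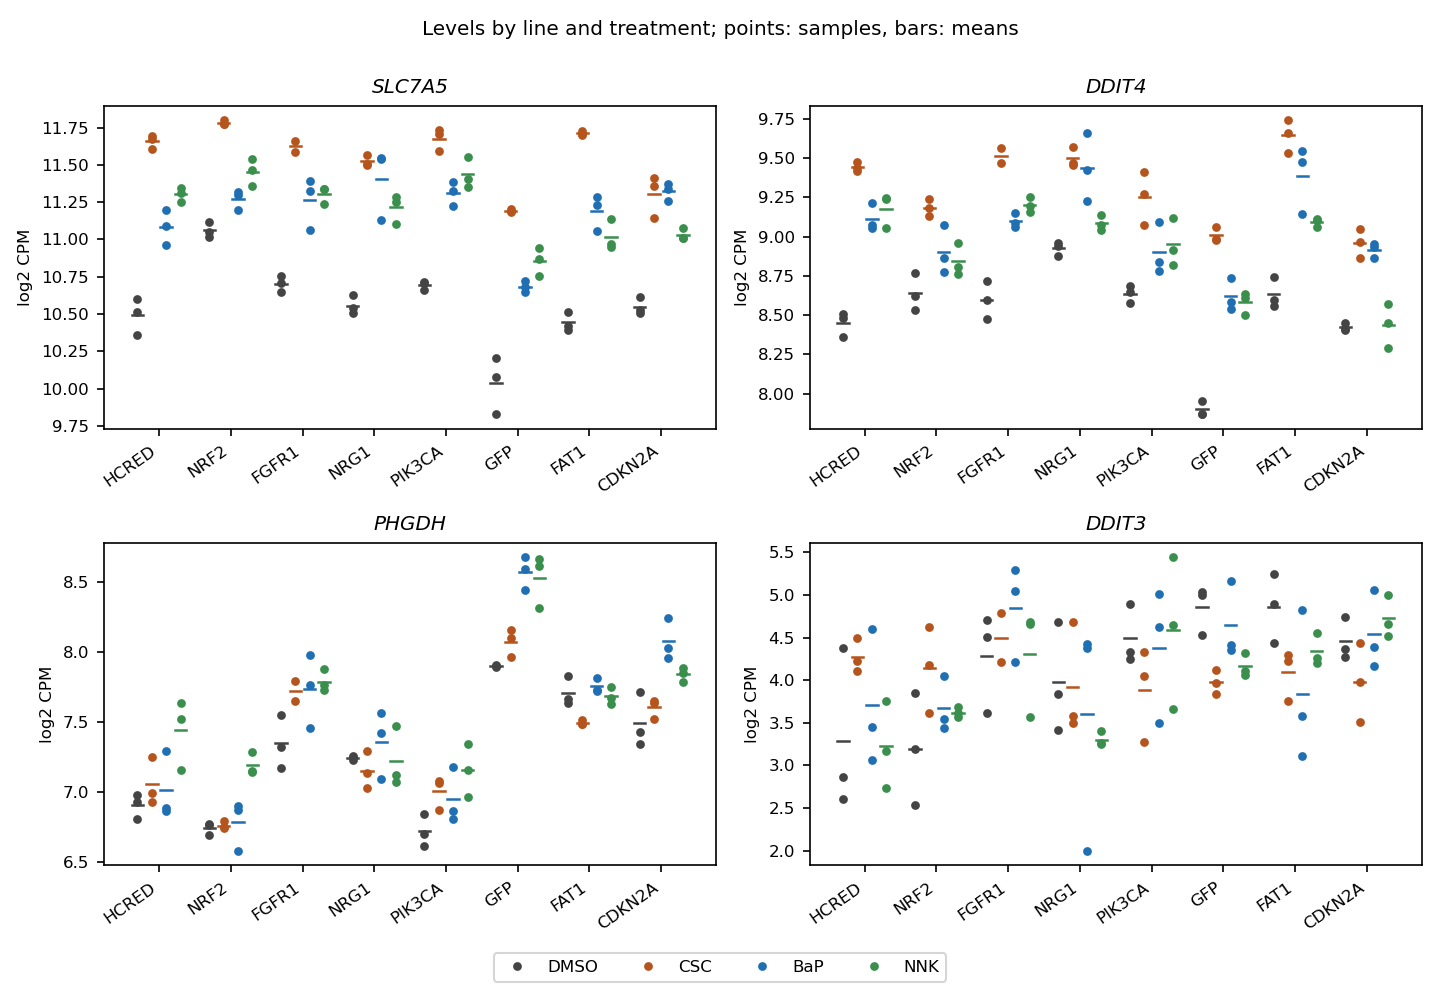
Levels in log2 CPM (y axis) of SLC7A5, DDIT4, PHGDH and DDIT3 in each sample, by line (x axis) and treatment (colour), 3 samples per combination except 2 for FGFR1 with CSC. SLC7A5 climbs with CSC in every line, by 0.72 in NRF2 and 1.27 in FAT1 cells, and DDIT4 in CDKN2A cells stays near its DMSO level with NNK.

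Other genes of the pathway were followed by lists. Shares of all genes called in these comparisons with DMSO were 17.2% for GFP against HCRED, 25.9% for FAT1 and 37.5% for CDKN2A cells. Of 11 further ATF4 targets tested, 5 rose and 1 fell in GFP against HCRED cells with DMSO, with ADM2 at 2.31 and the cystine transporter SLC7A11 at 1.24, and their median was 0.48 against -0.01 for all genes. ADM2 had a mean of only 7.98 reads per sample and 0 reads in 3 samples. In FAT1 against GFP cells 1 rose and 4 fell (median -0.37), with JDP2 at -1.44 and SLC7A11 at -0.89. In CDKN2A cells 4 rose and 2 fell (median 0.25), with the proline enzyme PYCR1, which had a mean of 9.24 reads, at 1.14. In the same CDKN2A comparison 7 of 12 genes of the endoplasmic reticulum stress response rose and 0 fell (median 0.48), where 18.9% of all genes rose, with the chaperones HYOU1 at 1.30 and HSPA5 at 0.95, and with the carcinogens 9 rose and 0 fell, where 25.5% of all genes rose. That list gave 1 that rose and 4 that fell in GFP against HCRED cells and 2 and 2 in FAT1 cells. Of the 11 remaining cytosolic tRNA synthetases tested, 4 rose and 2 fell in GFP against HCRED cells, 3 rose and 6 fell in FAT1 cells, and 0 rose and 5 fell in CDKN2A cells. VARS, also on that list, had 0 reads in all 95 samples, while the others on it had means from 49.0 (FARSA) to 335 reads (TARS). Whether expression or read assignment gave the 0 reads was not tested, so no level can be read for VARS.

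Of the 15 genes of eIF2 kinases and eIF2 control, 1 rose and 0 fell in GFP against HCRED cells, 0 and 3 did in FAT1 cells and 5 and 2 in CDKN2A cells. With the chemicals, for which 55.2%, 51.3% and 52% of all genes were called, 1 of them rose and 5 fell with CSC, 2 and 8 with BaP and 1 and 8 with NNK, and with the GC and length trend removed these were 2 and 2, 2 and 1, and 1 and 1. Further ATF4 targets gave 5 and 2 with CSC, 6 and 0 with BaP and 4 and 2 with NNK, led by the stress cytokine GDF15 with 1.45 for CSC and 1.54 for BaP. GDF15 had a mean of only 7.93 reads per sample. The 8 targets of NRF2 all rose with CSC and with BaP, also with the trend removed, and 3 rose with NNK. Remaining synthetases gave 2 and 6, 3 and 6, and 3 and 6.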

How the data were processed

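SFL libraries of AALE cells were made by the authors and sequenced as single reads. The authors trimmed them with Cutadapt 1.12, checked them with FastQC 0.11.5, aligned them to hg19 with STAR 2.5.2b and assigned them to RefSeq genes by featureCounts. The authors deposited raw counts for 95 samples, the single unit used here, and groups were taken from the sample labels. The members and the gene lists were chosen with earlier results of these data known.

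Counts were normalized with TMM (edgeR 4.0.16, R 4.3.3) and tested with limma 3.58.1 on voom-transformed values, in 2-sided tests with Benjamini-Hochberg adjustment over genes whose mean count reached 1 (14385 to 14407 per comparison) and a threshold of 0.05. Levels are log2 CPM with a prior count of 2, so that 0 reads give a low value and not a missing one. A line was compared with its control with DMSO (3 against 3) and, in other libraries, with CSC, BaP or NNK (treatment as covariate). Chemicals were compared with DMSO over all lines, and interactions by a moderated F test. Library depth sets the precision of every value. Exon length and GC content were those of the union of a gene's GENCODE exons, while the reads had been assigned to RefSeq genes. ASNS, DDIT3 and ATF4 are named in each comparison of lines or chemicals, as are called members, by value or range, and in full with DMSO or over all lines for the 10 largest changes among those whose mean count reached 10. Other settings tried were DESeq2 1.42.0 and its size factors, the quasi-likelihood test of edgeR, other count filters, the replicate number as a block, 1 fit of all samples, leaving out replicates, lines or the 9 libraries under 500000 reads, and removal of a loess trend (span 0.3) of GC content and length per sample, estimated over the 13770 tested genes (95.6%) with a value. Same-numbered samples deviated together with mean correlations of -0.0168 to 0.0517, so the numbers were not taken as pairs. Replicates differed by a chi-square per degree of freedom of 1.12 to 2.86 over 94 pairs, and all were kept. The fits were tested on simulated data.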

Additional observations from a re-analysis of the deposited data

Results flagged for a closer look

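A test of the difference between lines in their response to a chemical passed for 8 combinations of a member and a chemical, out of 41 members and 3 chemicals (moderated F over 7 line terms, limma-voom, adjusted over all genes). For CSC the F values were 10.19 for SLC7A5, 8.833 for DDIT4 and 4.296 for DDIT3. For BaP they were 8.484 for SLC7A5, 6.224 for DDIT4, 5.187 for PHGDH and 4.898 for SLC3A2. For NNK the F value was 8.726, for DDIT4. Of 10 alternative settings, SLC7A5 and DDIT4 with CSC were called in 10, SLC7A5 with BaP and DDIT4 with NNK in 9, DDIT4 with BaP in 8, PHGDH in 7, DDIT3 in 5 and SLC3A2 in 3.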

How the results depend on the processing

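Removal of the GC content and length trend moved the most values. It left 14, 17 and 13 members called for CSC, BaP and NNK in place of 27, 30 and 24. It turned the sign of 27 called or named member changes. With CSC these became 0.061 for PSAT1, 0.035 for ALDH1L2, -0.128 for PCK2, -0.085 for SLC7A1, 0.132 for GARS, 0.070 for IARS, 0.058 for XPOT, -0.223 for ATF4, -0.032 for CHAC1 and -0.00011 for SESN2. With BaP they became 0.017 for MTHFD2, -0.033 for GPT2, -0.079 for SLC1A5, 0.058 for SLC38A2, -0.051 for SLC6A9, -0.035 for AARS, 0.108 for GARS, 0.105 for IARS, -0.183 for ATF4 and -0.106 for CHAC1. With NNK they became 0.018 for PSAT1, 0.037 for ALDH1L2, -0.042 for SLC1A5, 0.064 for SLC38A2, 0.082 for GARS, -0.171 for CHAC1 and -0.065 for SESN2. The cause was not tested. The BaP interaction called 2 members in place of 4 with the trend removed, and 2 with no filter on low counts. DESeq2 called 4 members for NRF2, 1 for FGFR1, 3 for NRG1 and 3 for PIK3CA with DMSO, in place of 7, 7, 7 and 8, and 1 fit of all 95 samples called 3 for FGFR1 and 4 for NRG1. The other counts stayed within 1.5 times the reported ones.

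Leaving out each replicate in turn gave 22 to 24 called members for CSC, 27 to 29 for BaP and 19 to 22 for NNK, and 2, 1 to 3 and 1 to 2 for their interactions. With DMSO the ranges were 19 to 23 for FAT1, 21 to 22 for CDKN2A, 6 to 9 for NRF2, 2 to 8 for FGFR1, 3 to 7 for NRG1, 6 to 7 for PIK3CA and 27 to 29 for GFP against HCRED. With the carcinogens they were 24 to 28, 25 to 26, 10 to 14, 15 to 17, 6 to 12 and 10 to 13 for FAT1, CDKN2A, NRF2, FGFR1, NRG1 and PIK3CA. Of 316 called values of single members, 215 kept their call in every such fit. With the replicate number as a block, 5 members were called for NRG1 with DMSO and 19 for FGFR1 with the carcinogens, where the samples share a number only. At the depth of these libraries, genes with few reads have wide errors: the SE of ASNS was 0.58 to 0.81 in the comparisons of lines with DMSO, against 0.10 to 0.12 for ATF4.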
